A study of Homo sapiens with 12 samples.

Results

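The comparison described here set Nutlin against AICAR in HepG2 cells that carry a small hairpin RNA against p53, called sh-p53 in the array titles. HepG2 is an established human liver tumour line, and all groups share its origin. The 4 arrays were chosen by title out of 12 in the series. They were 2 arrays of sh-p53 cells given 10 uM Nutlin and 2 arrays of sh-p53 cells given 0.5 mM AICAR, each for 24 h. The other 8 arrays were 2 each of sh-con cells, which carry a control hairpin, given Nutlin, AICAR or DMSO at the same doses, and of sh-p53 cells given DMSO, the solvent control. Wells were plated as biological duplicates, per the labels, from 1 line per hairpin. Whether each hairpin line was a clone or a pool was not given in the sources used here. Each compound was used at 1 dose and 1 time, and the doses differ, so every difference below is between these 2 treatments.

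Nutlin blocks the pocket of MDM2, the ubiquitin ligase that binds p53 and marks it for destruction, so p53 accumulates and switches on genes of growth arrest, repair and cell death. AICAR is a nucleoside that adenosine kinase turns into ZMP, a mimic of AMP. ZMP activates AMPK, the kinase that senses low energy, slows protein and lipid synthesis and can phosphorylate p53. Both compounds can therefore reach p53, by different routes, and the hairpin is meant to lower this shared factor. The transcript aimed at by the hairpin is not analysed here.

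The value of a gene on an array is a log2 RMA value, a background-corrected and normalised brightness, and differences are Nutlin minus AICAR on the log2 scale with the standard error of the fit unless stated otherwise. A gene counted as called when its adjusted p (Benjamini-Hochberg) was below 0.05 in limma, a linear model with a shared estimate of the spread, fitted over all 12 arrays and 13813 genes. Of these, 2624 were higher with Nutlin than with AICAR (19.0%) and 2151 were lower (15.6%), and 702 (5.08%) and 333 (2.41%) of them by 2-fold or more. These calls were 55.0% higher, against 69.2% under median centring, which called 3017 higher and 1342 lower. Over all genes the Nutlin and AICAR arrays did not overlap for 63.6%, and among the called genes this held for 4773 of 4775. Duplicates correlated at 0.990 for Nutlin, 0.991 for AICAR and 0.993 for DMSO. The number higher fell to 1669 without the first AICAR array and to 1667 without the first Nutlin array. Counts of list members below are to be read beside the 19.0% and 15.6% over all genes. Those given without 1 of these arrays are to be read beside the lower totals. Some genes stand in more than 1 list, so the counts of different lists are not independent. Array medians ranged from 5.64 to 5.84 over the series, and centring each array on its median raised all differences by 0.11. In bulk RNA, fewer cells with a transcript and less of it per cell cannot be told apart.

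Set against DMSO in the same line, few genes passed for Nutlin and many for AICAR. Nutlin minus DMSO gave 11 genes higher (0.0796%) and 0 lower, with 296 higher and 564 lower by an unadjusted p below 0.05 in the same limma fit. That count was 67 in a fit of those 4 arrays alone, 48 in a fit of the sh-p53 arrays, 28 with the stricter filter and 26 with a trended and robust prior, and it was 5 without the first DMSO, the second DMSO or the first Nutlin array. AICAR minus DMSO gave 2235 genes higher (16.2%) and 2982 lower (21.6%), or 3361 in all without the first AICAR array and 3463 without the second DMSO array, against 5217. Each of these comparisons shares 2 arrays with the one between the compounds, so calls in both are not independent. Their values are given side by side below. Nutlin minus DMSO reached from -0.31 to 0.26 between the 5th and the 95th percentile of genes, and AICAR minus DMSO from -1.08 to 0.72.

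**Figure D1:**
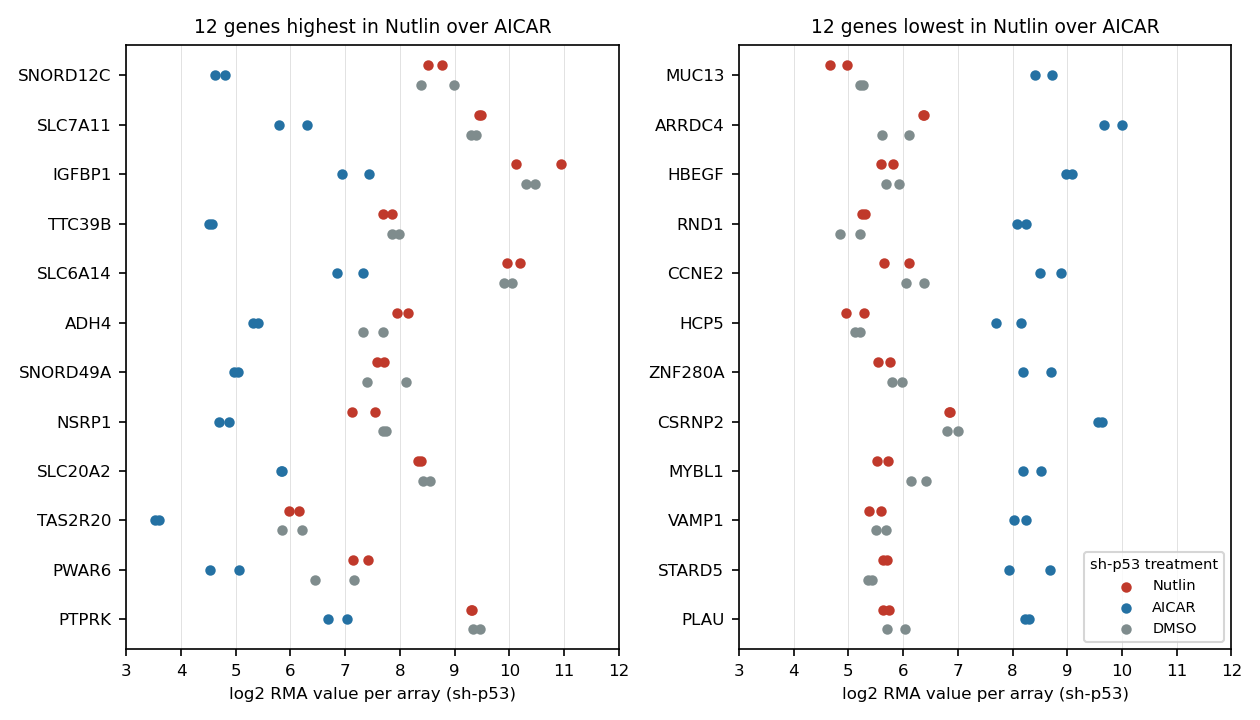
Log2 RMA value of each sh-p53 array (x axis) for the 12 genes with the highest and the 12 with the lowest called difference between Nutlin and AICAR (y axis), with 2 points per treatment. The 24 genes were picked from those whose Nutlin and AICAR arrays did not overlap (63.6% of all genes), so these points are apart by choice. The DMSO points lie near the Nutlin points.

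The 12 genes highest with Nutlin relative to AICAR included transporters, liver genes and small nucleolar RNAs. SLC7A11, the cystine transporter that feeds glutathione synthesis, had log2 values of 9.49 and 9.45 in Nutlin arrays, against 5.79 and 6.30 in AICAR arrays, and 9.40 and 9.30 in DMSO arrays. Its difference was 3.42 ± 0.19 (SE, adjusted p = 2.26e-09), a 10.7-fold higher value with Nutlin. The AICAR arrays were the low ones, and the Nutlin and DMSO arrays lay close together. IGFBP1, a secreted liver protein that binds insulin-like growth factors and is repressed by insulin, had values of 10.95 and 10.13 with Nutlin, 7.43 and 6.94 with AICAR and 10.47 and 10.31 with DMSO. Its difference was 3.35 ± 0.22 (SE, adjusted p = 9.79e-09). SLC6A14, an amino acid transporter, differed by 2.99 ± 0.17 (SE, adjusted p = 2.42e-09), and SLC20A2, a phosphate transporter, by 2.52 ± 0.13 (SE, adjusted p = 1.22e-09).

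ADH4, a liver alcohol dehydrogenase, had values of 8.14 and 7.94 with Nutlin, 5.31 and 5.40 with AICAR and 7.32 and 7.70 with DMSO, a difference of 2.69 ± 0.16 (SE, adjusted p = 3.46e-09). TTC39B, which is linked to high-density lipoprotein metabolism, differed by 3.23 ± 0.22, but its AICAR mean lay under 4.58, the level below which genes were left out, so the size is uncertain. The same holds for the bitter taste receptor gene TAS2R20 (2.50 ± 0.17). The splicing regulator NSRP1 differed by 2.55 ± 0.17, the receptor phosphatase PTPRK by 2.45 ± 0.19 and the noncoding RNA PWAR6 by 2.49 ± 0.24. The largest difference of all was that of a small nucleolar RNA, SNORD12C, at 3.92 ± 0.18 (SE, adjusted p = 3.06e-10), and SNORD49A reached 2.63 ± 0.23. In these 12 genes the Nutlin minus DMSO difference ran from -0.39 to 0.53 and passed the test in 0, while AICAR minus DMSO ran from -3.97 to -2.02 and passed in all 12. The same Nutlin and AICAR arrays picked these genes, so both counts were partly set by that choice.

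The genes lowest with Nutlin relative to AICAR included surface, growth factor and cell cycle genes. MUC13, a membrane mucin, had values of 4.98 and 4.66 in Nutlin arrays, against 8.42 and 8.73 in AICAR arrays, a difference of -3.75 ± 0.17 (SE, adjusted p = 3.06e-10). HBEGF, a ligand of the EGF receptor, had values of 5.82 and 5.60 with Nutlin, 8.98 and 9.08 with AICAR and 5.68 and 5.92 with DMSO and differed by -3.32 ± 0.14 (SE, adjusted p = 1.89e-10). All 4 Nutlin and DMSO arrays of HBEGF lay at least 3 log2 units below both AICAR arrays. PLAU, the urokinase that activates plasminogen at the cell surface, differed by -2.58 ± 0.14 (SE, adjusted p = 2.26e-09). CCNE2, a cyclin that drives entry into S phase, differed by -2.82 ± 0.19, and MYBL1, a transcription factor of the MYB family, by -2.74 ± 0.21.

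Also at this end were ARRDC4 (-3.47 ± 0.19, described below with its promoter), CSRNP2, a nuclear protein (-2.75 ± 0.15), VAMP1, a vesicle fusion protein (-2.65 ± 0.16), STARD5, a sterol carrier (-2.64 ± 0.21), ZNF280A, a zinc finger gene (-2.80 ± 0.17), and HCP5, a noncoding RNA of the major histocompatibility region (-2.81 ± 0.20). In the 12 lowest genes, of which 11 are named here, Nutlin minus DMSO ran from -0.66 to 0.51 and passed in 0, and AICAR minus DMSO ran from 2.09 to 3.98 and passed in all 12. These counts, too, were partly set by the choice of genes.

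Targets of p53 did not move as a block. Of 19 tested growth arrest and feedback targets, 5 were higher with Nutlin (26.3%) and 6 lower (31.6%), beside 19.0% and 15.6% of all genes. Their median was 0.23, beside -0.06 over all genes. MDM2, the ligase that Nutlin blocks and itself a p53 target, had values of 11.20 and 11.17 with Nutlin, 9.96 and 10.12 with AICAR and 9.78 and 9.96 with DMSO. Its difference was 1.15 ± 0.14 (SE, adjusted p = 4.86e-06), and the Nutlin arrays stood above the other 4. CDKN1A, the p21 inhibitor of cyclin-dependent kinases, had values of 7.61 and 7.63 with Nutlin, 8.02 and 7.96 with AICAR and 6.14 and 6.32 with DMSO, so both compounds lay above DMSO. Nutlin was the lower of the 2, with a difference of -0.37 ± 0.13 (SE, adjusted p = 0.0409). That call was lost under median centring (-0.26), in both fits of fewer groups (-0.37), and without any 1 of the 4 arrays, with differences of -0.40 to -0.34.

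Other arrest targets split between the compounds. GDF15, a secreted stress hormone, was higher with Nutlin, at 11.10 and 10.68 in Nutlin arrays, against 9.39 and 9.40 in AICAR arrays, a difference of 1.49 ± 0.15. The polo-like kinases PLK2 (-1.87 ± 0.17) and PLK3 (-1.43 ± 0.14), the cell cycle regulator SERTAD1 (-1.29 ± 0.16) and SESN2, a sestrin that restrains mTORC1 (-0.89 ± 0.14), were lower with Nutlin. PLK2 had values of 7.33 and 6.89 with Nutlin, 8.80 and 9.16 with AICAR and 6.29 and 6.44 with DMSO, with the Nutlin arrays between the other groups. Without the first AICAR array 3 of these targets were higher, and without the first Nutlin array 2.

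Death targets were called lower with Nutlin more often than higher, an imbalance that was smaller under other settings. Of 14 tested, 6 were lower with Nutlin and 1, the lysosomal protein DRAM1 (0.74 ± 0.15), was higher. PMAIP1, the BH3-only protein NOXA, had values of 5.92 and 5.45 with Nutlin, 7.82 and 7.85 with AICAR and 5.41 and 5.72 with DMSO and differed by -2.15 ± 0.18 (SE, adjusted p = 1.35e-07). The decoy death receptor TNFRSF10D differed by -1.29 ± 0.15 and the caspase gene CASP10 by -0.71 ± 0.17. The list's median was -0.09 and turned to 0.02 under median centring, where 3 members were lower and 2 higher by the test. Without the second Nutlin array, too, 3 were lower and 2 higher, and without the first AICAR array 3 were lower and 1 higher. CASP10 gave -0.55 without the second AICAR array and -0.49 without the second Nutlin array, and neither passed. BCL2L11, the BH3-only protein BIM, which is not in that list, was lower with Nutlin, at -2.15 ± 0.17, and XIAP, an inhibitor of caspases, was higher, at 0.87 ± 0.15.

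Of 7 tested repair targets, 5 were higher with Nutlin and 1 lower. Against DMSO, AICAR called 4 of the 7 lower and 1 higher. Nutlin against DMSO called 0 in limma, with 3 higher and 1 lower by an unadjusted p below 0.05. The damage sensor DDB2 had values of 8.53 and 8.18 in Nutlin arrays, against 7.48 and 7.52 in AICAR arrays and differed by 0.86 ± 0.16 (SE, adjusted p = 0.000417). FANCC, a Fanconi anaemia gene, differed by 1.37 ± 0.16, and the translesion polymerase POLK by 0.71 ± 0.16. POLH, another such polymerase, was the exception, at -0.49 ± 0.15 (SE, adjusted p = 0.0138), a call lost under median centring (-0.39) and without the second AICAR array (-0.37) or the second Nutlin array (-0.39). Among 9 targets of redox and metabolism, 3 were higher, with SPATA18, a mitochondrial quality control gene, at 1.00 ± 0.17, and 2 lower, ACER2, a ceramidase (-1.11 ± 0.22), and FUCA1, a fucosidase (-0.74 ± 0.14). Without the first AICAR or the first Nutlin array 1 of these was higher.

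The 11 genes that passed for Nutlin against DMSO fell into different places between the compounds. ACTA2, smooth muscle actin, had values of 8.54 and 8.17 with Nutlin, 6.25 and 6.40 with AICAR and 7.03 and 6.99 with DMSO, with Nutlin above and AICAR below DMSO, and differed by 2.03 ± 0.16 (SE, adjusted p = 6.81e-08). SULT2A1, a liver sulfotransferase (1.45 ± 0.16), SULF2, a sulfatase (1.01 ± 0.15), and CYGB, an oxygen-binding globin (0.62 ± 0.16, or 0.51 and not called without the second Nutlin array), were also higher with Nutlin than with AICAR, as were MDM2 and SPATA18. MR1, which presents vitamin B metabolites to T cells, was lower (-0.72 ± 0.15), as was CDKN1A with the limits given above (-0.40 to -0.34 without 1 array). SESN1, a sestrin (-0.21 ± 0.15, adjusted p = 0.309), TP53INP1, a stress-induced nuclear protein (-0.34 ± 0.13, adjusted p = 0.0607), and ZMAT3, an RNA-binding p53 target (0.23 ± 0.13, adjusted p = 0.197), did not pass between the compounds. Each of these 3 was called for AICAR against DMSO as well, by 1.10, 1.69 and 0.71.

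**Figure D2:**
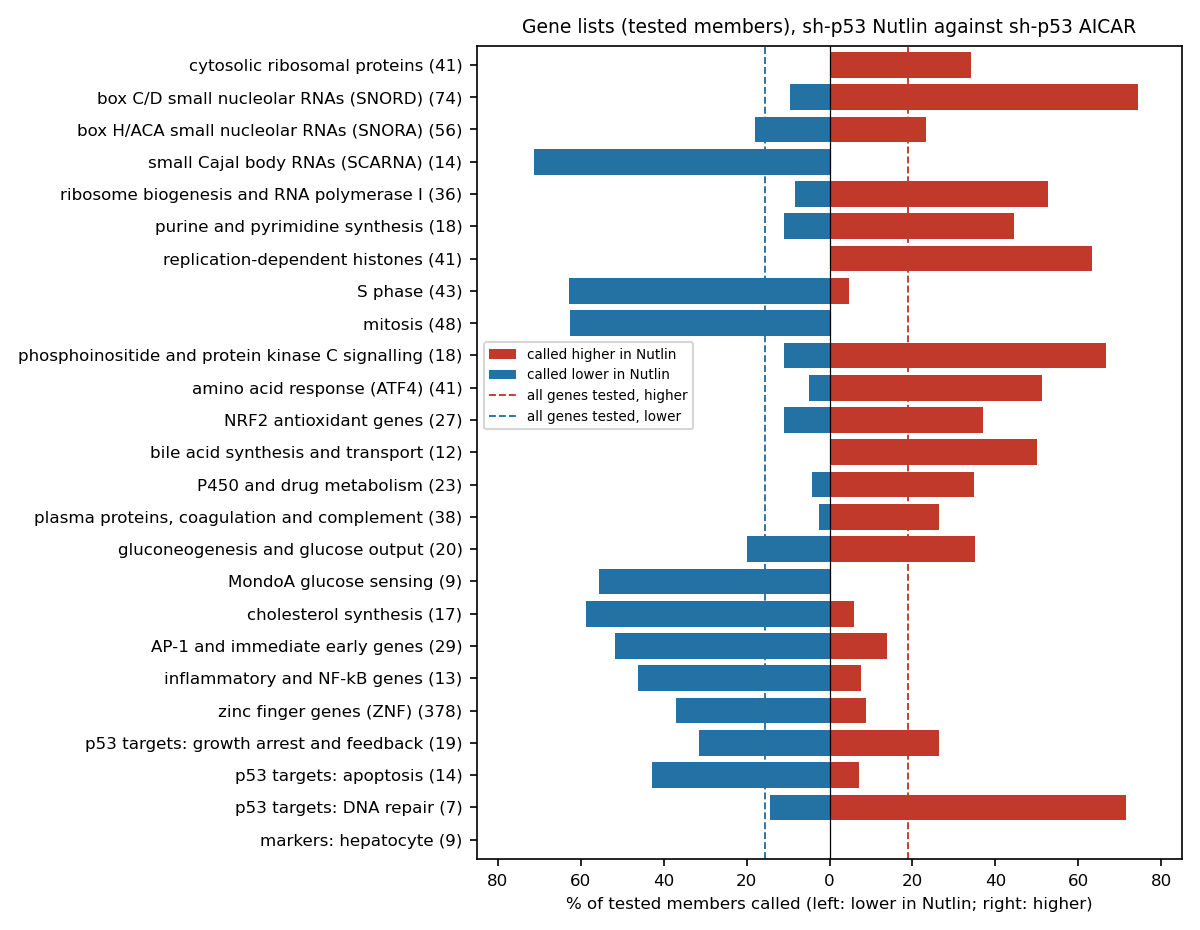
Share of the tested members of 25 gene lists called higher (right, red) or lower (left, blue) with Nutlin than with AICAR in sh-p53, in percent, with dashed lines at the shares over all 13813 genes (19.0% and 15.6%). Bars for box C/D small nucleolar RNAs, histones and ribosome biogenesis reach far to the right, and those for S phase, mitosis, cholesterol synthesis and small Cajal body RNAs to the left.

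Most cell division genes were lower with Nutlin than with AICAR, while most histone genes were higher. Of 43 tested S phase genes, 27 were lower and 2 higher, with a median of -0.57. Of 48 mitosis genes, 30 were lower and 0 higher in limma, with 1 higher by an unadjusted p below 0.05, and the median was -0.49. Under median centring 21 genes of each list were lower. Fewer passed without the second AICAR array, with medians of -0.467 for S phase and -0.435 for mitosis. The same held without the second Nutlin array, with medians of -0.492 and -0.38. The 15.6% of all genes called lower stands beside 62.8% and 62.5% of these lists.

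E2F1, the factor that turns on S phase genes, had values of 7.14 and 7.29 with Nutlin, 8.49 and 8.64 with AICAR and 7.35 and 7.49 with DMSO. It differed by -1.35 ± 0.14 (SE, adjusted p = 1.15e-06), and the AICAR arrays stood above the other 4. ORC6, part of the origin recognition complex (-1.43 ± 0.20), TK1, thymidine kinase (-1.23 ± 0.16), and the cyclin CCNE1 (-1.20 ± 0.14) were lower as well. MKI67, the Ki-67 antigen of dividing cells, had values of 8.47 and 8.58 with Nutlin, 9.77 and 9.87 with AICAR and 9.30 and 9.11 with DMSO. Here the order was Nutlin lowest, DMSO between and AICAR highest, and the difference was -1.30 ± 0.15 (SE, adjusted p = 3.18e-06). FOXM1, the driver of late cell cycle genes, differed by -1.55 ± 0.14, the kinetochore motor CENPE by -1.64 ± 0.19 and the phosphatase CDC25B by -1.32 ± 0.14. Against DMSO, Nutlin called 0 genes of both lists in limma, although 33 of the S phase and 39 of the mitosis genes were lower by an unadjusted p below 0.05. AICAR called 12 S phase genes higher and 3 lower, and 11 mitosis genes higher and 4 lower.

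The promoter of MKI67 is shown because it holds both elements known from cell cycle genes, the CCAAT box bound by NF-Y and the cell cycle genes homology region. The window runs from 250 bases before to 50 after the start in RefSeq (GRCh38.p14, chr10:128126374-128126673, minus strand), 5′ to 3′. Capitals mark CCAAT and TTTGAA on either strand, and one TTTGAA overlaps a CCAAT read on the other strand by 1 base.
MKI67: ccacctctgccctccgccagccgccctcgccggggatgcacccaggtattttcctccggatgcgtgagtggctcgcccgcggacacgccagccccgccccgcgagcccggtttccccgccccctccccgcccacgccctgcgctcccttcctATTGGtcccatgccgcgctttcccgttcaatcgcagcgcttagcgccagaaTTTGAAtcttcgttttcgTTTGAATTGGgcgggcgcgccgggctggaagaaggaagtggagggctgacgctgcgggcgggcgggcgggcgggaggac

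TTTGAA was found on either strand in 32 of 52 promoters of the mitosis list (61.5%), against 15.2% of all 35116 promoters in the table. CCAAT was found in 40 of those 52 (76.9%), against 34.6% of all. In the S phase list the shares were 2.08% and 58.3%. A match of letters is no evidence of binding.

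Replication-dependent histone genes, whose messages lack a poly(A) tail and are made in S phase, were higher with Nutlin where they passed. Of 57 measured, 41 passed the filter on dim genes. Of these, 26 were higher with Nutlin and 0 lower in limma, with 1 lower by an unadjusted p below 0.05, and the median was 0.67. H4C2 had values of 9.07 and 9.16 with Nutlin, 7.06 and 7.29 with AICAR and 9.55 and 9.62 with DMSO, a difference of 1.94 ± 0.17 (SE, adjusted p = 1.61e-07). H1-2, a linker histone, had values of 8.29 and 7.92 with Nutlin, 6.19 and 6.48 with AICAR and 8.23 and 8.66 with DMSO and differed by 1.77 ± 0.18 (SE, adjusted p = 7.79e-07). In both genes the AICAR arrays were the low ones. Against DMSO, AICAR called 26 histone genes lower and 1 higher, and Nutlin called 0, with 1 higher and 12 lower by an unadjusted p below 0.05. Histone genes are near-identical copies, so probes may be shared between members and single values are uncertain.

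The promoter of H1-2 (RefSeq, GRCh38.p14, chr6:26056421-26056720, minus strand, 250 bases before to 50 after the start) is shown because it holds a CCAAT box, in capitals, as did 58 of 68 histone promoters (85.3%).
H1-2: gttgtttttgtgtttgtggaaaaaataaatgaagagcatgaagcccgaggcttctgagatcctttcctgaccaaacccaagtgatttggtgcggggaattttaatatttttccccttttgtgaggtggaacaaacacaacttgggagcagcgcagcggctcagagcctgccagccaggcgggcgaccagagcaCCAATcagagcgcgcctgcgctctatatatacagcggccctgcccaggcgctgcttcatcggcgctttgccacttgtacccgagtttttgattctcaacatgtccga

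Targets of glucose sensing that passed were lower with Nutlin than with AICAR. MondoA and its partner MLX bind carbohydrate response elements when glucose phosphates build up. Of 9 tested genes of this system, 5 were lower and 0 higher in limma, with 0 higher by an unadjusted p below 0.05 too, and the median was -0.65. ARRDC4, an arrestin that limits glucose uptake, had values of 6.36 and 6.38 with Nutlin, 9.67 and 10.01 with AICAR and 6.11 and 5.61 with DMSO. It differed by -3.47 ± 0.19 (SE, adjusted p = 1.96e-09), 11.1-fold lower. TXNIP, its paralogue, which also binds thioredoxin, had values of 10.21 and 10.00 with Nutlin, 11.24 and 11.29 with AICAR and 9.99 and 9.90 with DMSO and differed by -1.15 ± 0.16 (SE, adjusted p = 2.76e-05). In both genes Nutlin and DMSO arrays stood together below AICAR. KLF10, a zinc finger repressor (-1.31 ± 0.14), PKLR, pyruvate kinase of the liver (-0.78 ± 0.14), and ARRDC3 (-0.65 ± 0.17) were also lower. The factors themselves did not pass, with -0.03 ± 0.15 for MLXIP, which encodes MondoA, -0.04 ± 0.14 for MLXIPL and 0.13 ± 0.14 for MLX, nor did ARRDC2 (-0.20 ± 0.14). ARRDC3 was no longer called without the second AICAR array (-0.49) or the second Nutlin array (-0.53).

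The promoters of ARRDC4 (RefSeq, GRCh38.p14, chr15:97960453-97960752, plus strand) and TXNIP (chr1:145996530-145996829, minus strand, the first of 2 listed) are shown because both genes are classic outputs of MondoA and both were lower with Nutlin. Each runs from 250 bases before to 50 after the start. Capitals mark CACGTG, the E-box core, in ARRDC4, and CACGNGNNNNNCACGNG, a pair of E-box-like motifs 5 bases apart, in TXNIP.
ARRDC4: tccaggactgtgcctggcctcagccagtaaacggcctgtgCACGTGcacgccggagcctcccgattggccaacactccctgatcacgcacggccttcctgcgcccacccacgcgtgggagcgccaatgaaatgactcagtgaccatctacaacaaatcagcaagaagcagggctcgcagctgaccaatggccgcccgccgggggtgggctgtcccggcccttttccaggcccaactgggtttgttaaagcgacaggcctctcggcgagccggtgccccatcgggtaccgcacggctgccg
TXNIP: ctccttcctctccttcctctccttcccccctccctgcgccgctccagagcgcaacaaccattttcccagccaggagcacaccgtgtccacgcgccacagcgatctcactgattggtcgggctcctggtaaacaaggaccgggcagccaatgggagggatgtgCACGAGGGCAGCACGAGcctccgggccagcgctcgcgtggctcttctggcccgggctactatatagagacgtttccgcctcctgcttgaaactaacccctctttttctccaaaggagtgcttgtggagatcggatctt

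CACGTG lay at positions -210 to -205 from the ARRDC4 start and was found in 7.26% of all promoters. The paired form lay at -88 to -72 from the TXNIP start and was found in 20 of 35116 promoters (0.057%). It was searched for after the sequence had been read.

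Glucose transport and output were higher with Nutlin for some genes and lower for others. SLC2A2, the liver glucose transporter GLUT2, had values of 8.95 and 8.58 with Nutlin, 6.58 and 6.58 with AICAR and 8.51 and 8.61 with DMSO, a difference of 2.19 ± 0.15 (SE, adjusted p = 2.13e-08). SLC2A1 (1.78 ± 0.15) and SLC2A3 (1.75 ± 0.18), transporters of most cells, and the hexokinase HK2 (1.34 ± 0.19) were higher as well. ALDOC, an aldolase, was lower, at -1.96 ± 0.19 (SE, adjusted p = 6.43e-07). Of 28 tested glycolysis and hypoxia genes, 5 were higher and 4 lower, near the background, or 3 and 2 without the first AICAR array. Of 20 genes of gluconeogenesis and glucose output, 7 were higher, among them PC, pyruvate carboxylase (1.08 ± 0.18), and the coactivator PPARGC1A (1.01 ± 0.14), and 4 lower, among them G6PC1, glucose-6-phosphatase (-0.84 ± 0.15).

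The enzymes that take up and process AICAR itself were measured too. ADK, adenosine kinase, which makes ZMP, had values of 8.47 and 8.25 with Nutlin, 6.86 and 7.33 with AICAR and 8.18 and 8.59 with DMSO and was higher with Nutlin by 1.27 ± 0.19 (SE, adjusted p = 5.21e-05). ATIC, which consumes ZMP (0.60 ± 0.14), ADSL, which makes it in purine synthesis (1.05 ± 0.15), and the nucleotidases NT5C2 (0.86 ± 0.17) and NT5E (0.59 ± 0.15) were also higher. PNP, a nucleoside phosphorylase (-0.78 ± 0.16), and IMPDH2, the gate to guanine nucleotides (-0.38 ± 0.14), were lower. ATIC was not called without the first AICAR array (0.47), and NT5E without that array (0.47) or the first Nutlin array (0.44). IMPDH2 was not called without either AICAR array (-0.44 and -0.32) or the second Nutlin array (-0.24), under median centring (-0.27) or in both fits of fewer groups (-0.38). The remaining 8 of 15 tested, among them the transporter SLC29A1 (-0.30 ± 0.13, adjusted p = 0.0949) and the deaminase AMPD2 (-0.34 ± 0.13, adjusted p = 0.0569), did not pass. The list's median of 0.00 had no stable sign under other scalings, and 3 members were higher without the first AICAR array.

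Subunits of AMPK and enzymes of nucleotide synthesis were mostly higher where they passed. The 8 tested genes of the AMPK list were subunits and the upstream kinases STK11 and CAMKK2. Of these 8, 3 were higher (37.5%, beside 19.0% of all genes) and 0 lower in limma, with 0 lower by an unadjusted p below 0.05 too. The 3 were the catalytic subunits PRKAA1 (0.54 ± 0.16) and PRKAA2 (0.56 ± 0.15) and the regulatory subunit PRKAG1 (0.54 ± 0.17). Without the first AICAR array (0.38, 0.46 and 0.46) or the first Nutlin array (0.47, 0.47 and 0.42) none of the 3 was called. Of 18 genes of purine and pyrimidine synthesis, 8 were higher, led by the uridine kinase UCK2 (1.04 ± 0.13) and DHODH (0.82 ± 0.18), and 2 lower. Without the first AICAR array 5 were higher, and without the first Nutlin array 4, when DHODH stood at 0.50 and was not called.

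Amino acid response genes that passed were mostly higher with Nutlin. ATF4 is the factor that restores amino acid supply when a shortage stalls translation. Of 41 tested genes, 21 were higher (51.2%) and 2 lower, with a median of 0.42. ATF4 itself had values of 10.60 and 10.42 with Nutlin, 8.18 and 8.36 with AICAR and 10.55 and 10.53 with DMSO and differed by 2.24 ± 0.15 (SE, adjusted p = 1.79e-08), or by 1.12 in its other probe set. The serine pathway gene PSPH (1.55 ± 0.16, or 2.26 in its other probe set), the mitochondrial folate enzyme MTHFD2 (1.64 ± 0.14) and DDIT4, an inhibitor of mTORC1 (1.12 ± 0.18), were higher. ATF3, a stress-induced partner of ATF4, was lower, at -1.18 ± 0.14 (SE, adjusted p = 4.05e-06). TGATGNAA, the core of the element ATF4 binds with C/EBP factors, was found in 13 of 57 promoters of this list (22.8%), against 3.62% of all.

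Antioxidant and endoplasmic reticulum genes held calls in both directions. Of 27 tested genes of the NRF2 list, which also holds the regulators NFE2L2 and KEAP1, 10 were higher (37.0%) and 3 lower (11.1%). These shares stand beside 19.0% and 15.6% of all genes, and fewer were higher without the first AICAR or the first Nutlin array. The list shares SLC7A11 with the amino acid response list, and ABCC2 and ABCC3 with the bile acid list. NFE2L2, which encodes NRF2, differed by 1.19 ± 0.14, GCLM, a subunit of the glutathione-making ligase, by 0.89 ± 0.19 and HMOX1, heme oxygenase, by 0.84 ± 0.15, while OSGIN1 was lower (-0.78 ± 0.13). Of 21 endoplasmic reticulum genes, 6 were higher (28.6%), among them XBP1 (1.00 ± 0.14) and the chaperone HSPA5 (0.67 ± 0.14), and 2 lower (9.52%), with a median of 0.09.

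Most genes of sterol synthesis were lower with Nutlin than with AICAR. Of 17 tested cholesterol genes, 10 were lower (58.8%) and 1 higher, with a median of -0.56. Under median centring 9 were lower, with a median of -0.448. Fewer passed without the second AICAR or the second Nutlin array, when the median was -0.456 and -0.485. IDI1, the isomerase of the isoprenoid units, had values of 9.86 and 9.71 with Nutlin, 11.19 and 11.37 with AICAR and 9.66 and 9.83 with DMSO and differed by -1.49 ± 0.13 (SE, adjusted p = 3.04e-07). MVD (-1.23 ± 0.15), MVK (-0.82 ± 0.14), DHCR7 (-0.90 ± 0.14) and SC5D (-0.78 ± 0.14), early and late enzymes of the pathway, were lower too. PMVK, the kinase between MVK and MVD, was higher, at 0.69 ± 0.14 (SE, adjusted p = 0.00111). Among 20 fatty acid and triglyceride genes, 7 were lower, with ACSS2, which makes acetyl-CoA from acetate, at -1.53 ± 0.15, LPIN1 at -1.17 ± 0.15, FASN at -0.63 ± 0.15 and ACLY at -0.61 ± 0.14. Another 2 were higher, among them GPAM, the first step of triglyceride synthesis (0.89 ± 0.15). CPT1A, the gate of fatty acid oxidation, was higher (0.70 ± 0.17, or 0.58 and not called without the first Nutlin array) and CPT2, its partner inside the mitochondrion, lower (-1.03 ± 0.16). The medians of the fatty acid synthesis and oxidation lists changed sign under other scalings.

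Genes of bile acids and drug metabolism that passed were mostly higher with Nutlin. Of 19 bile acid genes measured, 12 were tested, and 6 of these were higher and 0 lower in limma, with 0 lower by an unadjusted p below 0.05 too. ABCC2, a pump of the bile canaliculus, had values of 10.99 and 10.94 with Nutlin, 9.18 and 9.39 with AICAR and 10.88 and 10.68 with DMSO and differed by 1.68 ± 0.15 (SE, adjusted p = 2.34e-07). AKR1D1, a reductase of bile acid synthesis (1.54 ± 0.18), and the nuclear receptors NR0B2 (1.42 ± 0.15) and NR5A2 (1.06 ± 0.17) were higher. Of 23 P450 and drug metabolism genes, 8 were higher, with UGT2B10 at 1.46 ± 0.17 and CYP24A1, which inactivates vitamin D, at 1.30 ± 0.17. CYP4F2, a fatty acid hydroxylase, was the exception, with values of 5.48 and 5.17 with Nutlin, 7.09 and 6.90 with AICAR and 4.98 and 4.90 with DMSO and a difference of -1.67 ± 0.17 (SE, adjusted p = 7.82e-07).

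Few genes of secreted liver proteins were lower with Nutlin. Of 38 plasma protein genes, 10 were higher (26.3%) and 1, the heme carrier HPX (-0.64 ± 0.18), lower, with a median of 0.13. HPX was not called without the first AICAR array (-0.63) or the second Nutlin array (-0.46). Without the first AICAR or the first Nutlin array the share of the list called higher fell more steeply than over all genes. The list's median was then 0.11 and 0.05, beside -0.035 and -0.027 over all genes. HP, haptoglobin, had values of 8.68 and 8.04 with Nutlin, 6.89 and 7.56 with AICAR and 8.12 and 8.17 with DMSO and differed by 1.13 ± 0.21 (SE, adjusted p = 0.000347). Of 22 apolipoprotein and lipoprotein genes, 5 were higher (22.7%, beside 19.0% of all genes), led by the sterol exporter ABCG5 (1.09 ± 0.16), or 3 without the first AICAR array. The cholesterol exporter ABCG1 was called lower (-0.38 ± 0.14, adjusted p = 0.0434), which did not hold under median centring (-0.27), without the first AICAR array (-0.28) or without the first Nutlin array (-0.29), among other settings. HNF4G, a liver nuclear receptor, differed by 1.91 ± 0.19 (SE, adjusted p = 6.77e-07) with values of 7.07 and 6.82 with Nutlin, 5.12 and 4.94 with AICAR and 7.26 and 7.35 with DMSO.

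Immediate early genes that passed were mostly lower with Nutlin than with AICAR. Of 29 tested AP-1 and immediate early genes, 15 were lower (51.7%) and 4 higher, with a median of -0.47. DUSP10, a phosphatase of stress kinases, had values of 5.53 and 5.53 with Nutlin, 7.84 and 7.92 with AICAR and 5.38 and 5.58 with DMSO and differed by -2.35 ± 0.15 (SE, adjusted p = 7.22e-09). JUNB (-1.90 ± 0.14) and FOS (-1.09 ± 0.16), parts of AP-1, and KLF4, a transcription factor of differentiation (-1.17 ± 0.15), were lower. DUSP6, a phosphatase of ERK, was higher, at 1.12 ± 0.14 (SE, adjusted p = 1.15e-05). ERRFI1, an inhibitor of the EGF receptor, was higher (1.01 ± 0.16) while its ligand HBEGF, above, was lower.

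Among inflammatory genes, too, more were lower than higher. Of 24 measured NF-kB genes, 13 were tested, and 6 were lower (46.2%, beside 15.6% of all genes). NFKB2, a subunit of NF-kB, stood at -1.16 ± 0.13 and the chemokine CXCL8 at -0.92 ± 0.14. Another 1, the chemokine CCL20 (0.63 ± 0.16, or 0.36 and not called without the first Nutlin array), was higher (7.69%, beside 19.0%). Of 12 interferon genes, 5 were lower (41.7%), with IRF1, a transcription factor of the response, at -1.87 ± 0.20 and IFI6 at -1.17 ± 0.14. Another 2 were higher (16.7%), one of them OAS1, a sensor of double-stranded RNA (1.32 ± 0.16).

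Phosphoinositide and protein kinase C genes were mostly higher with Nutlin, 12 of 18 tested (66.7%), with 2 lower and a median of 0.69. PRKCA, protein kinase C alpha, had values of 7.94 and 8.18 with Nutlin, 5.55 and 5.79 with AICAR and 8.33 and 8.06 with DMSO and differed by 2.39 ± 0.16 (SE, adjusted p = 1.12e-08). PLCB1, a phospholipase (2.31 ± 0.16), PIK3CB, a PI3-kinase subunit (1.74 ± 0.16), and the receptor phosphatases PTPRG (1.83 ± 0.15) and PTPRM (1.76 ± 0.18) were higher. Many of these loci are very long, a property taken up below.

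Of 15 clock genes, 3 were higher, with NPAS2, an activator of the clock, at 1.56 ± 0.16, and 5 lower, with the repressors CRY2 at -1.37 ± 0.15 and PER2 at -1.15 ± 0.14. Their median of -0.10 turned to 0.01 under either other scaling, and 3 were lower without the second AICAR or the second Nutlin array. Of 14 YAP and TEAD genes, 5 were higher, with YAP1 at 1.01 ± 0.19 and TEAD1 at 1.00 ± 0.20, and 4 lower, with AMOTL2 at -1.40 ± 0.15. The median of -0.08 turned to 0.03 under median centring. Of 35 autophagy and lysosome genes, 4 were higher, with WIPI1 at 1.62 ± 0.17, and 7 lower, or 12 lower after a second quantile normalisation. Among the last, the sialidase NEU1 stood at -1.36 ± 0.14 and MAP1LC3B, the LC3 of autophagosomes, at -1.05 ± 0.15. INSR, the insulin receptor (1.12 ± 0.16), and IGF1R, the receptor of IGF1 (1.12 ± 0.18, or 1.99 in its other probe set), were 2 of 3 genes higher among 10 of the insulin-like growth factor system.

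Many ribosome genes were higher with Nutlin. Of 36 genes of ribosome biogenesis and RNA polymerase I, 19 were higher (52.8%) and 3 lower, with a median of 0.40. MYC, known to drive such genes, had values of 9.55 and 9.30 with Nutlin, 8.51 and 8.53 with AICAR and 9.68 and 9.70 with DMSO and differed by 0.91 ± 0.14 (SE, adjusted p = 6.48e-05). The ribosome assembly factors RRS1 (1.02 ± 0.17) and WDR12 (0.82 ± 0.15) and DKC1, the pseudouridine synthase of H/ACA particles (0.89 ± 0.15), were higher, and NOLC1, a chaperone of those particles, was lower (-0.65 ± 0.13). Without the first AICAR or the first Nutlin array the share called higher fell more steeply than over all genes. The list's median was then 0.32 and 0.35. Of 41 ribosomal protein genes, 14 were higher and 0 lower in limma, with 0 lower by an unadjusted p below 0.05 too, with RPL23 at 1.36 ± 0.15 and RPL22 at 1.17 ± 0.20. The 14 were 34.1% of the list, beside 19.0% of all genes. This share, too, fell more steeply than that over all genes without the first AICAR or the first Nutlin array. The list's median of 0.28 was then 0.17 and 0.16, beside -0.035 and -0.027 over all genes.

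**Figure D3:**
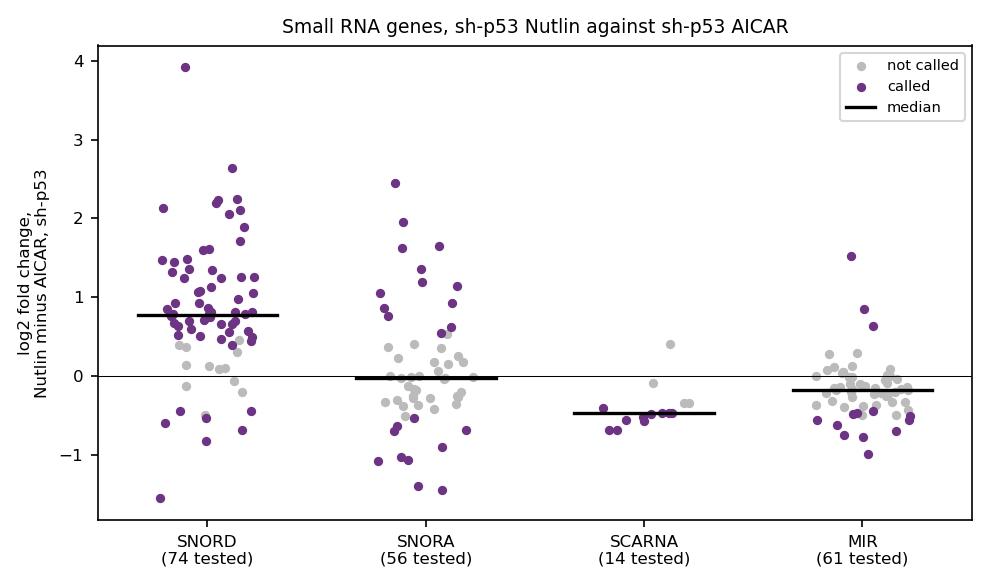
Log2 difference between Nutlin and AICAR in sh-p53 (y axis) for tested genes of 4 classes of small RNA, purple where called and grey where not, with a black bar at each class's median. Most SNORD points lie above 0 and all but one of the SCARNA points below it.

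Small RNA genes separated by class, in lists drawn up after values had been seen. Box C/D RNAs guide methylation of ribosomal RNA, box H/ACA RNAs guide its pseudouridylation, and small Cajal body RNAs guide both on spliceosomal RNAs. Of 74 tested box C/D genes (of 112 measured), 55 were higher with Nutlin (74.3%) and 7 lower, with a median of 0.77. The lower ones numbered 2 without the second AICAR array, 4 without the first Nutlin array and 3 without the second. Of 56 box H/ACA genes, 13 were higher and 10 lower, with a median of -0.02 that turned positive under median centring. Of 14 small Cajal body genes, 10 were lower and 0 higher in limma, with 1 higher by an unadjusted p below 0.05. That count fell to 4 under median centring, to 1 without the second AICAR array, to 4 without the first Nutlin array and to 3 without the second.

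SNORD12C had values of 8.77 and 8.51 with Nutlin, 4.63 and 4.81 with AICAR and 8.39 and 8.99 with DMSO, with the AICAR arrays near the filter level of 4.58 and the other 4 above 8. Its host gene ZFAS1, named after its value was seen, was higher by 1.09 ± 0.14 (SE, adjusted p = 1.19e-05). SNORD44 had values of 9.19 and 9.24 with Nutlin, 6.86 and 7.18 with AICAR and 9.22 and 9.76 with DMSO, a difference of 2.19 ± 0.17 (SE, adjusted p = 7.43e-08). SNORD52 (2.25 ± 0.18) and SNORD34 (2.23 ± 0.21) followed, and among box H/ACA RNAs SNORA33 (2.45 ± 0.20), whose AICAR mean lay under the filter level. SNORD7 was the lowest of its class (-1.55 ± 0.17). Arrays of this kind measure a small RNA together with any precursor or host intron that covers its probes, and these cannot be told apart here.

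Few microRNA hairpin genes passed, and those named here were chosen after their values were seen. Of 173 measured, 61 were tested, and 3 were higher (4.92%) and 11 lower (18.0%), beside 19.0% and 15.6% of all genes. The share lower was thus near that over all genes. The lower count was 5 under either other scaling and 3 without the first AICAR or the first Nutlin array. The mature sequences of 4 are shown because they come from 2 loci that were called in opposite directions, with seeds (bases 2 to 8) in capitals, from RefSeq (GRCh38.p14), 5′ to 3′.
hsa-miR-21-5p: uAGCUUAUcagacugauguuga
hsa-miR-106b-5p: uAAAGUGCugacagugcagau
hsa-miR-93-5p: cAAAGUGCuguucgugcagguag
hsa-miR-25-3p: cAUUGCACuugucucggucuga

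The seed AAAGUGC is shared by miR-106b and miR-93, while miR-21 and miR-25 each have their own. MIR21 on chromosome 17, whose product is abundant in liver tumours, had values of 9.47 and 9.37 with Nutlin, 7.95 and 7.84 with AICAR and 9.44 and 9.16 with DMSO. It was higher with Nutlin by 1.53 ± 0.17 (SE, adjusted p = 2.21e-06), and VMP1, whose transcript overlaps it, by 0.73 ± 0.14 (SE, adjusted p = 0.000567). MIR93 (-0.99 ± 0.17, adjusted p = 0.000213), MIR106B (-0.78 ± 0.16, adjusted p = 0.00101) and MIR25 (-0.47 ± 0.17, adjusted p = 0.0411), which lie together in an intron of MCM7 on chromosome 7, were lower. MIR25 was not called without any 1 of the 4 arrays (-0.57 to -0.38). MCM7, a helicase subunit, did not pass (-0.30 ± 0.14, adjusted p = 0.106). These probes read hairpin regions and not the mature RNAs.

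**Figure D4:**
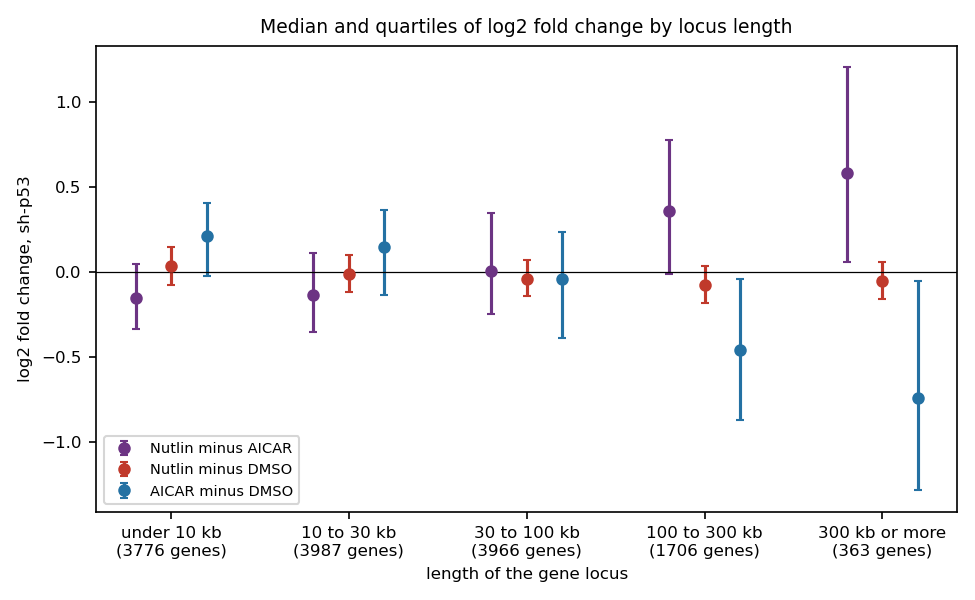
Median log2 fold change in sh-p53 (points, y axis) with quartiles (bars) in 5 bins of locus length (x axis), for Nutlin minus AICAR, Nutlin minus DMSO and AICAR minus DMSO. The first rises from -0.15 in the shortest bin to 0.58 in the longest, the second stays between -0.08 and 0.04, and the third falls to -0.74.

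Most of the longest genes were higher with Nutlin than with AICAR. Locus lengths from RefSeq were known for 13798 of the tested genes (99.9%). Loci of 300 kb or more, 363 in number, had a median difference of 0.58, and 59.0% of them were called higher and 0.826% lower, against 19.0% and 15.6% of all genes. Loci of 100 to 300 kb had a median of 0.36, with 46.3% higher and 3.22% lower. Loci of 30 to 100 kb had a median of 0.00, those of 10 to 30 kb -0.14 and those under 10 kb -0.15, with 8.69% higher and 17.8% lower in the last. In the longest bin Nutlin minus DMSO had a median of -0.05 and AICAR minus DMSO one of -0.74. In sh-con cells the median of Nutlin minus AICAR there was 0.63, and -0.02 in the shortest bin. In the longest bin the brighter genes had a median of 1.02 and the dimmer genes 0.28. PTPRK, PRKCA, PLCB1, PTPRG and PTPRM are loci of over 300 kb, and so is ADK.

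Zinc finger genes with ZNF symbols, a list also drawn up after values had been seen, were lower more often than higher with Nutlin, 140 against 33 of 378 tested (37.0% and 8.73%). Their median was -0.29, and 105 were lower under median centring. The number higher was 17 without the first AICAR array and 20 without the first Nutlin array. ZNF519 (-2.28 ± 0.15) and ZNF850 (-2.22 ± 0.17) followed ZNF280A, and ZNF277 was the highest (2.31 ± 0.19), but its other probe set gave -0.008.

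The remaining lists are given beside the 19.0% of all genes called higher and the 15.6% called lower. Oxidative phosphorylation subunits gave 5 higher (12.8%) and 1 lower (2.56%) of 39, with a median of 0.11, or 3 higher without the first AICAR or the first Nutlin array. Genes of the BCL2 family and caspases gave 3 higher (17.6%) and 1 lower (5.88%) of 17. Cytosolic chaperones gave 2 higher (14.3%) and 3 lower (21.4%) of 14, and fatty acid oxidation and ketogenesis genes 4 higher (18.2%) and 2 lower (9.09%) of 22. Hepatocyte transcription factors gave 5 higher (27.8%) and 2 lower (11.1%) of 18. The list of EGF family ligands and receptors, which also holds ERRFI1 and LRIG1, gave 4 higher and 1 lower of 8. This was a larger share higher than over all genes, and fewer were higher without either AICAR array or the first Nutlin array.

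Markers of cell types were set beside these lists, and those of hepatocytes were bright. ALB, albumin, had values of 12.73 and 12.71 with Nutlin, 12.57 and 12.66 with AICAR and 12.51 and 12.68 with DMSO, and AFP, the fetal protein that HepG2 cells secrete, had 12.62 and 12.51 with Nutlin, 12.29 and 12.35 with AICAR and 12.49 and 12.65 with DMSO. Of 9 tested hepatocyte markers, 0 were called in limma, with 1 lower by an unadjusted p below 0.05, and their differences ran from -0.36 to 0.24. Of 6 cholangiocyte and progenitor markers, 3 were higher with Nutlin, PROM1 (1.08 ± 0.15), KRT19 (0.52 ± 0.14) and SPP1 (0.40 ± 0.14). KRT19 was not called without the first Nutlin array (0.40), and SPP1 without either AICAR array (0.37 and 0.44) or the first Nutlin array (0.34). CD68, a lysosomal protein listed as a leukocyte marker, was lower (-1.06 ± 0.13), and the other leukocyte, endothelial and fibroblast markers tested did not pass. Of 6 endothelial markers measured, 1 passed the filter on dim genes, of 6 fibroblast markers 4 and of 4 leukocyte markers 2, and the endothelial one, LYVE1, lay near the filter level in sh-p53. Of 18 genes often used as references, 1 was higher and 4 were lower. POLR2A, a subunit of RNA polymerase II, had values of 8.41 and 8.72 with Nutlin, 10.30 and 10.47 with AICAR and 8.97 and 8.54 with DMSO and differed by -1.82 ± 0.17 (SE, adjusted p = 3.69e-07), and PPIA, cyclophilin A, by -1.23 ± 0.14 (SE, adjusted p = 2.64e-06). The part of these shifts in the other results was not tested.

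The same comparison in sh-con cells shares no array with that in sh-p53 cells. It called 2467 genes higher with Nutlin (17.9%) and 2338 lower (16.9%). In all, 1611 genes were higher in both lines, which is 61.4% of the sh-p53 and 65.3% of the sh-con calls. Another 1301 were lower in both, 60.5% and 55.6%. Opposite calls were made for 67 genes higher in sh-p53 and lower in sh-con, and for 18 the other way. Across 13813 genes the differences in the 2 lines correlated at 0.673 (Pearson), a description over genes that share probes and platform and are not independent.

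**Figure D5:**
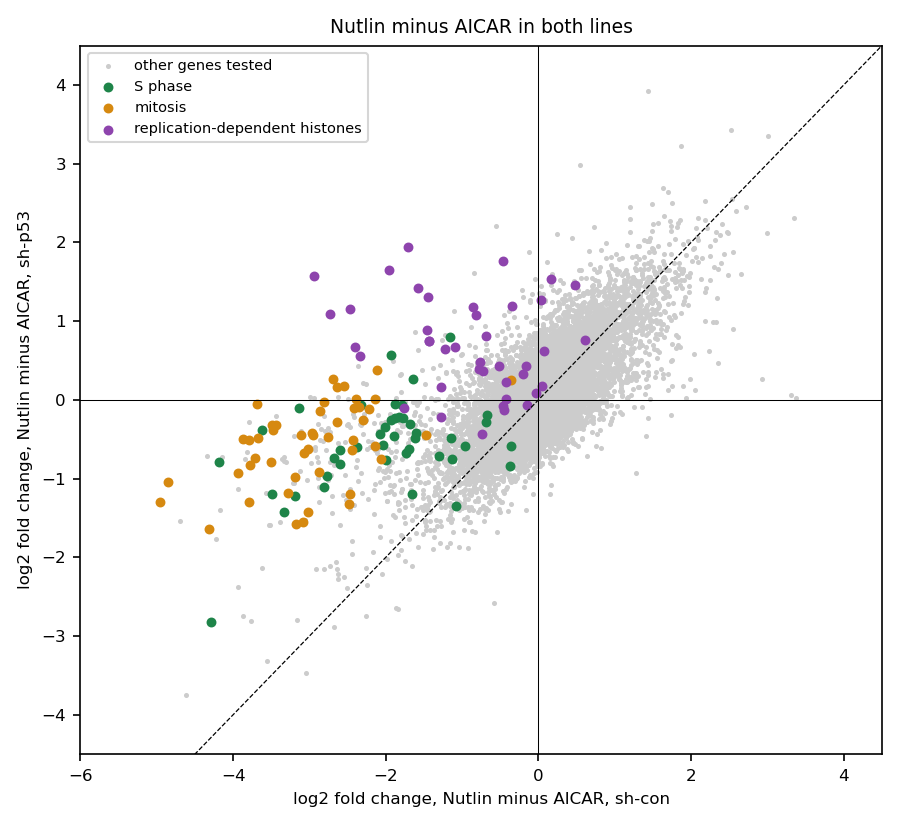
Log2 difference between Nutlin and AICAR in sh-p53 (y axis) against that in sh-con (x axis), 1 point per tested gene, with S phase, mitosis and histone genes coloured and the line of equal differences dashed. Mitosis genes lie far to the left but closer to 0 on the vertical axis, and many histone genes lie in the upper left, higher with Nutlin in sh-p53 and lower in sh-con.

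Several of the largest differences were present in both lines. SLC20A2 differed by 2.19 ± 0.13 in sh-con, PTPRK by 2.72 ± 0.19, HBEGF by -3.56 ± 0.14 and ARRDC4 by -3.04 ± 0.19, and the interaction described below did not pass for these 4 (adjusted p = 0.295, 0.575, 0.506 and 0.361). SLC6A14 differed by 0.54 ± 0.17 in sh-con, where its values were 9.39 and 9.08 in Nutlin arrays, against 8.81 and 8.56 in AICAR arrays. SNORD12C differed by 1.44 ± 0.18 there, with values of 6.52 and 6.49 in Nutlin arrays, against 5.24 and 4.89 in AICAR arrays.

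The interaction, the sh-p53 difference minus the sh-con difference, tested where the lines differed. It called 1088 genes (7.88%), 724 higher in sh-p53 (5.24%) and 364 lower (2.64%). That total was 637 without the first AICAR array of sh-p53, 582 without the first Nutlin array of sh-p53 and 708 without the second Nutlin array of sh-con. Of 48 mitosis genes, 47 were called, all with a more negative difference in sh-con, where 47 were lower with Nutlin and the median was -2.96. Of 43 S phase genes, 34 were called in that direction, and in sh-con 42 were lower, with a median of -1.88. CDK1, the kinase of mitotic entry, had values of 7.74 and 7.43 in Nutlin arrays, against 8.47 and 8.80 in AICAR arrays in sh-p53. In sh-con its mean was 4.15 in Nutlin arrays, against 9.01 in AICAR arrays, and the duplicates of each lay closer to each other than to the other treatment. The differences were -1.05 ± 0.20 in sh-p53 and -4.86 ± 0.20 in sh-con, and the interaction was 3.81 ± 0.28 (adjusted p = 7.49e-08). The sh-con Nutlin mean lay under the filter level of 4.58, so the sizes in sh-con and of the interaction are uncertain.

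Single mitosis genes showed this in different ways. CCNB1, cyclin B1, did not pass in sh-p53 (-0.02 ± 0.14, adjusted p = 0.909) and was lower with Nutlin in sh-con (-2.82 ± 0.14). NUF2, a kinetochore subunit, did not pass in sh-p53 either (-0.05 ± 0.16, adjusted p = 0.829) and gave -3.68 ± 0.16 in sh-con. SPC25, another kinetochore subunit, was lower in both lines, by -1.30 ± 0.20 in sh-p53 and -4.96 ± 0.20 in sh-con, where its Nutlin mean lay under the filter level and the size is uncertain. PBK, a mitotic kinase outside that list, was also lower in both, by -0.72 ± 0.17 and -4.35 ± 0.17.

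Many histone genes were called in opposite directions in the 2 lines. In sh-con 28 of 41 were lower with Nutlin and 1 higher, with a median of -0.77, and the interaction called 28 members. H2BC14 had values of 10.25 and 10.02 in Nutlin arrays, against 8.64 and 8.48 in AICAR arrays in sh-p53. In sh-con it had 6.05 and 5.77 in Nutlin arrays, against 8.95 and 8.75 in AICAR arrays. Its interaction, 4.52 ± 0.21 (adjusted p = 7.64e-10), was the highest of all genes. H2BC7 (3.83 ± 0.32), H4C2 (3.66 ± 0.23) and H2AC4 (3.63 ± 0.22) followed. Box C/D RNAs gave 29 interaction calls, all higher in sh-p53, with SNORD12C at 2.48 ± 0.26.

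Of the 8 genes with the most negative interaction, all but PLAU were higher with Nutlin than with AICAR in sh-con. ABCA12, a lipid transporter, had values of 3.86 and 3.95 in Nutlin arrays, against 3.89 and 3.87 in AICAR arrays in sh-p53, all under the filter level, and 7.79 and 7.64 in Nutlin arrays, against 4.38 and 4.29 in AICAR arrays of sh-con. LYVE1, a hyaluronan receptor, differed by 0.06 ± 0.18 (SE, adjusted p = 0.828) in sh-p53 and by 3.30 ± 0.18 in sh-con. LCN15, a lipocalin, gave 0.27 ± 0.15 and 2.93 ± 0.15, SERPINE2, a protease inhibitor, 0.12 ± 0.17 and 2.05 ± 0.17, PLTP, the phospholipid transfer protein, 0.03 ± 0.15 and 1.93 ± 0.15, and DEPP1, a regulator of autophagy, -0.19 ± 0.18 and 1.73 ± 0.18. PLAU was lower with Nutlin in sh-p53 and by -0.59 ± 0.14 in sh-con, an interaction of -1.99 ± 0.20. CCN1, a matrix protein and YAP target, was lower in sh-p53 (-0.93 ± 0.16) and higher in sh-con (1.28 ± 0.16). CDKN1A too was lower with Nutlin in sh-p53, as described above (-0.40 to -0.34 without 1 array), and higher in sh-con, by 0.58 ± 0.13, an interaction of -0.95 ± 0.19 (adjusted p = 0.00358).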

How the data were processed

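Total RNA of 12 wells was hybridised to Affymetrix human gene arrays, 1 per well. The deposited log2 values were made by the authors with RMA (background correction, quantile normalisation and probe summary) in Partek, per the submitters' processing notes. For both, versions are not given in the sources used here. Of 33297 probe sets, 19460 had 1 gene symbol, 1754 several and 12083 were unnamed. A gene took its brightest single-symbol probe set, giving 18417 genes, of which 769 had more than 1. The dimmest genes, those whose mean fell below the 25th percentile (4.577), numbered 4604 and were not tested, which left 13813. The array count, 2 per group, limits the precision, and read depth does not apply.

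Groups came from the array titles. In limma 3.58.1 (R 4.3.3) 6 group means were fitted over all 12 arrays, with 6 residual degrees of freedom, and p-values were adjusted by Benjamini-Hochberg over all tested genes. On simulated data the fit called 100% of 100 genes changed by 2 log2 units, 86% of 100 changed by 1 and 0.103% of 13613 unchanged genes. The simulated noise was independent between genes and arrays and few genes were changed, unlike in the data. These shares are therefore not the error rates of the real comparison.

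Named genes were the 12 highest and 12 lowest called differences whose Nutlin and AICAR arrays did not overlap, the 8 highest and 8 lowest called interactions, up to 6 called members per list with the largest change, list members that did not pass, members of the MondoA, AMPK and AICAR handling lists, MDM2 and CDKN1A. Genes called for Nutlin against DMSO, and others in the text, were named after their values were seen. The members and lists were chosen with earlier results of these data known, and 5 lists (box C/D, box H/ACA, small Cajal body, ZNF and microRNA genes) after values were seen. Deviations of arrays with the same replicate number correlated over genes from -0.558 to 0.567 between groups, and at -0.535 between sh-p53 Nutlin and sh-p53 AICAR. The sign differed between groups, so the numbers as given do not pair the wells in a consistent way. The deviations of many genes thus moved together, which the main fit does not model. Alternatives were other scalings, filters, probe-set rules, groups in the fit, a trended and robust prior, replicate blocks and leaving out each array. Promoter and microRNA sequences, and locus lengths, came from RefSeq (GRCh38.p14). The hairpin's target is not reported here.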

Additional observations from a re-analysis of the deposited data

Results flagged for a closer look

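The results here are genes whose difference between Nutlin and AICAR was not the same in sh-p53 as in sh-con cells by the interaction in limma. Each value is the sh-p53 difference minus the sh-con difference in log2 units, with an adjusted p (Benjamini-Hochberg over 13813 genes) below 0.05. Of the 69 genes named in the text with such a call, 50 kept it whichever of the 8 Nutlin and AICAR arrays was left out. Among these, S phase and mitosis genes had less negative differences in sh-p53 than in sh-con, with CDK1 (3.81), SPC25 (3.67), NUF2 (3.63), CCNB1 (2.79), CENPE (2.68), MKI67 (2.49), TK1 (1.96), ORC6 (1.91), FOXM1 (1.53), CCNE2 (1.47), POLA1 (1.46), MCM7 (1.38) and CDC25B (1.17). Histone genes had more positive differences in sh-p53, with H2BC14 (4.52), H2BC7 (3.83), H4C2 (3.66), H2AC4 (3.63) and H1-2 (2.24). Small nucleolar RNAs gave SNORD12C (2.48), SNORD30 (2.46), SNORD44 (1.46) and SNORD81 (1.27). Other values above 0 were those of PBK (3.63), SLC6A14 (2.44), HP (2.24), SLC2A3 (1.65), AKR1D1 (1.58), TTC39B (1.36), HK2 (1.29) and ADH4 (1.05). Values below 0 were those of ABCA12 (-3.35), LYVE1 (-3.24), LCN15 (-2.66), CCN1 (-2.21), PLAU (-1.99), SERPINE2 (-1.93), DEPP1 (-1.92), PLTP (-1.91), CYGB (-1.61), AMOTL2 (-1.24), SPATA18 (-1.18), CYP4F2 (-1.13), CPT1A (-1.12), POLH (-1.06), CYP24A1 (-1.05), PLCB1 (-1.03), G6PC1 (-1.03), SLC29A1 (-1.01), CDKN1A (-0.95) and PLK3 (-0.92). At least 1 of the 4 group means lay under the filter level of 4.58 for ABCA12, CCNE2, CDK1, CENPE, LYVE1, MUC13, MYBL1, SNORA33, SPC25 and TTC39B, so the sizes for these genes are uncertain.

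The other 19 genes lost the call when 1 array was left out, and their values are given with the range over the arrays that ended it. CPT2 was -0.86 (-0.88 to -0.59), DKC1 was 0.87 (0.73 to 0.77), DUSP6 was 0.77 (0.57 to 0.81) and FOS was 0.86 (0.69 to 0.87). GPAM was -0.78 (-0.82 to -0.63), HCP5 was 0.96 (0.62 to 0.98), MUC13 was 0.87 (0.70 to 0.88) and MYBL1 was 1.13 (0.80 to 1.03). NR5A2 was 0.99 (0.70 to 0.96), OSGIN1 was -0.73 (-0.73 to -0.66), RPL23 was 0.74 (0.61 to 0.67) and SLC2A1 was 0.74 (0.55 to 0.83). SLC7A11 was 0.90 (0.58 to 0.98), SNORA33 was 1.24 (1.01 to 1.06), SNORD28 was 1.22 (0.82 to 1.17) and SNORD79 was 1.16 (0.96 to 1.19). SULF2 was -0.72 (-0.73 to -0.56), VAMP1 was -0.81 (-0.71 to -0.63) and ZMAT3 was -0.64 (-0.74 to -0.54). By array, the calls lost numbered 18 without sh-p53 Nutlin 1, 4 without sh-p53 Nutlin 2, 15 without sh-p53 AICAR 1, 8 without sh-p53 AICAR 2, 11 without sh-con Nutlin 1, 16 without sh-con Nutlin 2, 10 without sh-con AICAR 1 and 5 without sh-con AICAR 2. No explanation of these differences was tested.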

How the results depend on the processing

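The counts of genes higher and lower with Nutlin than with AICAR in sh-p53 (2624 and 2151) changed by less than 1.5 times under every alternative but these. Median centring gave 1342 lower, and leaving out 1 array gave 1667 to 2564 higher and 1539 to 1738 lower. The count for Nutlin against DMSO (11) was 67 in a fit of those 4 arrays alone, 48 in a fit of the sh-p53 arrays alone, 28 with the stricter filter and 26 with a trended and robust prior, and 5 to 9 with 1 array left out. That for AICAR against DMSO (5217) was 3361 to 4661 with 1 array left out. The interaction (1088) was 582 to 1525 with 1 array left out.

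The replicate number as a block gave 2617 higher and 2156 lower. Crossing the numbers of the AICAR arrays, chosen after the data were seen, gave 2999 higher and 2703 lower. Of list medians farther from 0 than the spread between arrays, those that changed sign were of YAP and TEAD genes, 0.029 under median centring and 0.241 with the stricter filter, and of clock genes, 0.009 after a second quantile normalisation and 0.01 under median centring. Medians nearer 0 changed sign under a scaling for AICAR handling, box H/ACA RNAs, fatty acid synthesis and oxidation, chaperones, hepatocyte factors and markers, insulin-like growth factor genes, p53 apoptosis targets and reference genes. Lists with 1 or 2 calls in a direction often gained or lost 1 of them. Having 2 arrays per group, 1 dose and 1 time limits every comparison, and the causes of these shifts were not tested.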

Other observations

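Of 363 loci of 300 kb or more, the 3 called lower with Nutlin than with AICAR in sh-p53 were FRMD4B, a scaffold protein (-0.83 ± 0.16, adjusted p = 0.000426), POLA1, the catalytic subunit of DNA polymerase alpha (-0.57 ± 0.15, adjusted p = 0.00617), and COL23A1, a membrane collagen (-0.43 ± 0.16, adjusted p = 0.0458). POLA1 was not called without the second AICAR array (-0.47). COL23A1 was not called under median centring (-0.32), after a second quantile normalisation (-0.38), with no filter on dim genes, or without the first AICAR array (-0.30) or the first Nutlin array (-0.31). They were named after their values were seen.

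Box C/D RNAs of 1 host gene are set side by side here. In the introns of GAS5 lie SNORD44 (2.19 ± 0.17), SNORD79 (1.48 ± 0.24) and SNORD81 (0.48 ± 0.17), and in those of SNHG1 lie SNORD28 (1.06 ± 0.22) and SNORD30 (1.61 ± 0.15). SNORD81 was not called without the first AICAR array (0.27) or the first Nutlin array (0.36). SNHG29, the host of SNORD49A (2.63 ± 0.23), differed by 0.58 ± 0.13, adjusted p = 0.00208, but by 2.13 in its other probe set. These genes, too, were picked after their values were seen, and no test between them was made.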
